A study of Mus musculus with 12 samples.

Results

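The genes used as markers of mesothelium and of simple epithelium, Upk3b, Krt7, Krt8, Krt18, Krt19, Msln and Wt1, were examined in mouse embryonic fibroblasts (MEFs), connective tissue cells grown from embryos, that differ in the deacetylase gene Sirt1. Members were all non-control probes that carry one of these 7 gene names on the array. All 7 genes were found, with 9 of the 41174 probes: 2 each for Krt7 and Krt8 and 1 for each of the others. The groups were SIRT1 knockout (KO), heterozygous (Het) and wild type (WT) MEFs, with 4 one-colour arrays each. The labels call all cells female and give no strain, age, allele or number of embryos. All cultures grew without special treatment in DMEM supplemented with 10% serum, with glucose at 25 mM and glutamine at 4 mM, and each array received label made from 500 ng of RNA. The replicate numbers are 2, 3, 4 and 5 in KO and Het, and 1, 2, 3 and 5 in WT. The sample titles also carry a further code that is not explained, ending in Oct for replicate 4 of KO and Het and in no WT title. The labels do not state that replicates came from separate cultures or embryos, so the p-values speak of the spread among these arrays, part of which may be technical.

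Keratins are the intermediate filament proteins of epithelia, and a filament needs a type II partner such as Krt7 or Krt8 together with a type I partner such as Krt18 or Krt19. Krt8 with Krt18 is the basic pair of single-layered epithelia, and mesothelium, the lining of the body cavities, also makes Krt7 and Krt19. Mesothelial cells further carry the surface glycoprotein mesothelin (Msln) and the uroplakin Upk3b, and use the zinc finger transcription factor Wt1. Vimentin and fibrillar collagens are used here as fibroblast markers, and whether they separate fibroblasts from mesothelium was not tested.

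The level of a probe is given as log2 of its signal minus the 75th percentile of its array, so that 0 is that percentile. A probe counted as measured on an array when the extraction software called it well above background. Tests were run on probes measured on every array of 1 genotype or more, which 8 of the 9 member probes and 25601 of all probes were. The Wt1 probe was measured on 0 of the 12 arrays and was not tested. A probe was called when limma's Benjamini-Hochberg adjusted p over all tested probes was under 0.05.

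The probes that carry the results are printed because each value below is the signal of one such 60-base oligonucleotide. Positions refer to build mm7, as in the array files, and gene models of that build were not used here. Both Krt8 probes lie on the minus strand, at chr15:101983072-101983131 and chr15:101982940-101982999, with 72 bases between them:
Krt8, A_51_P242399: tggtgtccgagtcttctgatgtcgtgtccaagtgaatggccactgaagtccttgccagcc
Krt8, A_51_P242400: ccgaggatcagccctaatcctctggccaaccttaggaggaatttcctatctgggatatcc
Their type I partner Krt18 is read by a probe on the plus strand of the same chromosome, at chr15:102018067-102018126:
Krt18, A_51_P324814: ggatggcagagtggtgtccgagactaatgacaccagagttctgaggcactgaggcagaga
The Krt7 probes, also on the plus strand, lie at chr15:101413898-101413957 and chr15:101409444-101409503, with 4394 bases between them:
Krt7, A_51_P312348: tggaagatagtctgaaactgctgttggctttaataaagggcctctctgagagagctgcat
Krt7, A_52_P410685: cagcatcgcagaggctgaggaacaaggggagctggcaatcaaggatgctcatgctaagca
The Krt19 probe lies at chr11:100250117-100250176 on the minus strand and the Upk3b probe at chr5:135015932-135015991 on the plus strand:
Krt19, A_51_P356642: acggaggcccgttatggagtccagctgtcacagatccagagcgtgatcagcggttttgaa
Upk3b, A_52_P114889: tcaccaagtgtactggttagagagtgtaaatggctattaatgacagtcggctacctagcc
The longest run of bases shared by probes of different members was 11, and by probes of the same gene 6. The Msln probe A_51_P146560 lies at chr17:23931864-23931923 on the minus strand and the Wt1 probe A_52_P673458, printed in 10 spots, at chr2:105024058-105024117 on the plus strand.

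Features of the arrays come before the results. One Sirt1 probe, A_51_P141152, stood at −0.47 ± 0.29 in KO, 0.37 ± 0.03 in Het and 0.36 ± 0.21 in WT cells (SD, n = 4 each), which is 56.4% of the WT signal in KO cells. The other, A_52_P358612, stood at 0.81 ± 0.41, 0.87 ± 0.34 and 0.79 ± 0.24 in KO, Het and WT cells, and whether either probe lies in the deleted part is not given in the labels. The 3 arrays numbered 3 stood apart: over tested probes, arrays of the same genotype correlated at 0.969 to 0.998 where neither was numbered 3 and at 0.923 to 0.970 where one was. WT replicate 3 also went against its female label, with Xist probe A_51_P145453 at −2.94 against 1.66 to 3.42 on the other 11 arrays. The Y-linked Ddx3y probe A_51_P402994 stood at −5.28 in KO, −4.35 in Het and 1.04 in WT replicate 3, against −10.16 to −7.04 on the 9 arrays not numbered 3, and Eif2s3y probe A_51_P479715 at −5.02, −3.92 and 0.92 there, against −10.06 to −6.08. A second Ddx3y probe, A_52_P1083441, stood at −3.30 in WT replicate 3 and at −4.80 in WT replicate 2. In KO and Het replicate 3 it stood at −8.56 and −7.20, not well above background. Each member is therefore given with and without the arrays numbered 3. On slide 4, which held KO replicates 4 and 5, Het replicate 5 and WT replicate 5, 76.9% to 77.8% of probes were well above background, against 59.7% to 64.8% on the other 3 slides. The lowest level well above background was −8.36 to −7.75 on its arrays and −6.26 to −5.49 on the others. A dim signal could thus count as measured on slide 4 and not elsewhere. The fibroblast markers examined, 19 genes, were measured on all 12 arrays. So were the members Msln, Krt7, Krt18 and Krt19 and the mesothelial markers Pdpn, Nkain4 and Cldn15. Wt1 and the mesothelial marker Lrrn4 were measured on none. The number of arrays limits the precision throughout.

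Krt8, the type II keratin of simple epithelia, was higher in Het than in WT cells at both of its probes. With A_51_P242399 the levels were −5.27, −5.26, −4.59 and −4.72 in KO replicates 2 to 5, −2.94, −4.72, −2.13 and −2.01 in Het replicates 2 to 5, and −6.69, −5.79, −7.61 and −5.16 in WT replicates 1, 2, 3 and 5. Every Het array lay above every WT array, and the lowest Het array was replicate 3. With A_51_P242400 the levels were −5.36, −5.39, −4.69 and −4.96 in KO, −2.83, −4.63, −1.91 and −1.97 in Het, and −6.92, −6.03, −8.13 and −5.84 in WT cells. Here no level of any genotype overlapped another genotype's, and the order was Het, KO, WT. Of the WT arrays, replicate 5 alone was well above background at either probe, so no fold against WT is given.

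Het exceeded WT cells by 3.36 at A_51_P242399 (SE 0.61, limma adjusted p = 0.0340) and by 3.90 at A_51_P242400 (SE 0.61, limma adjusted p = 0.0191) on the log2 scale. The exact two-sided permutation p was 0.0286 at each probe, the smallest that 4 against 4 arrays can give. When all levels were raised to the highest floor of any array, −5.49, an alternative chosen after seeing the data, they were smaller, at 2.46 (limma adjusted p = 0.0416) and 2.66 (limma adjusted p = 0.0359). The differences without the arrays numbered 3 were 3.52 (limma adjusted p = 0.0013) and 4.03 (limma adjusted p = 0.0003). With slide as a block they were 3.39 (limma adjusted p = 0.124) and 3.99 (limma adjusted p = 0.0959), and with normexp background correction 1.98 (limma adjusted p = 0.121) and 2.08 (limma adjusted p = 0.115), so both calls ended. Fitting only Het and WT arrays also ended both (limma adjusted p = 0.0987 and 0.0722). Within slide 3 Het replicate 2 stood 3.77 and 4.25 above the mean of WT replicates 2 and 3, and within slide 4 Het replicate 5 stood 3.14 and 3.87 above WT replicate 5. Leaving out any of Het replicates 2, 4 and 5 ended the call at A_51_P242400, with limma adjusted p up to 0.0758, and the call at A_51_P242399 held in 4 of the 12 single omissions, those of KO replicate 3, Het replicate 3, WT replicate 3 and WT replicate 5.

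By mean level KO cells lay between Het and WT cells in Krt8. KO minus Het was −2.01 (SE 0.61, limma adjusted p = 0.211) and −2.27 (SE 0.61, limma adjusted p = 0.149), neither past the threshold. When the arrays numbered 3 were left out, KO was lower than Het by the test, at −2.50 (limma adjusted p = 0.0063) and −2.77 (limma adjusted p = 0.0019), and leaving out Het replicate 3 alone gave −2.60 (limma adjusted p = 0.0262) and −2.86 (limma adjusted p = 0.0150). KO minus WT was 1.35 (SE 0.61, limma adjusted p = 0.303) and 1.63 (SE 0.61, limma adjusted p = 0.214). The second probe passed without the arrays numbered 3, at 1.26 (limma adjusted p = 0.0435), and the first did not, at 1.02 (limma adjusted p = 0.127).

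**Figure D1:**
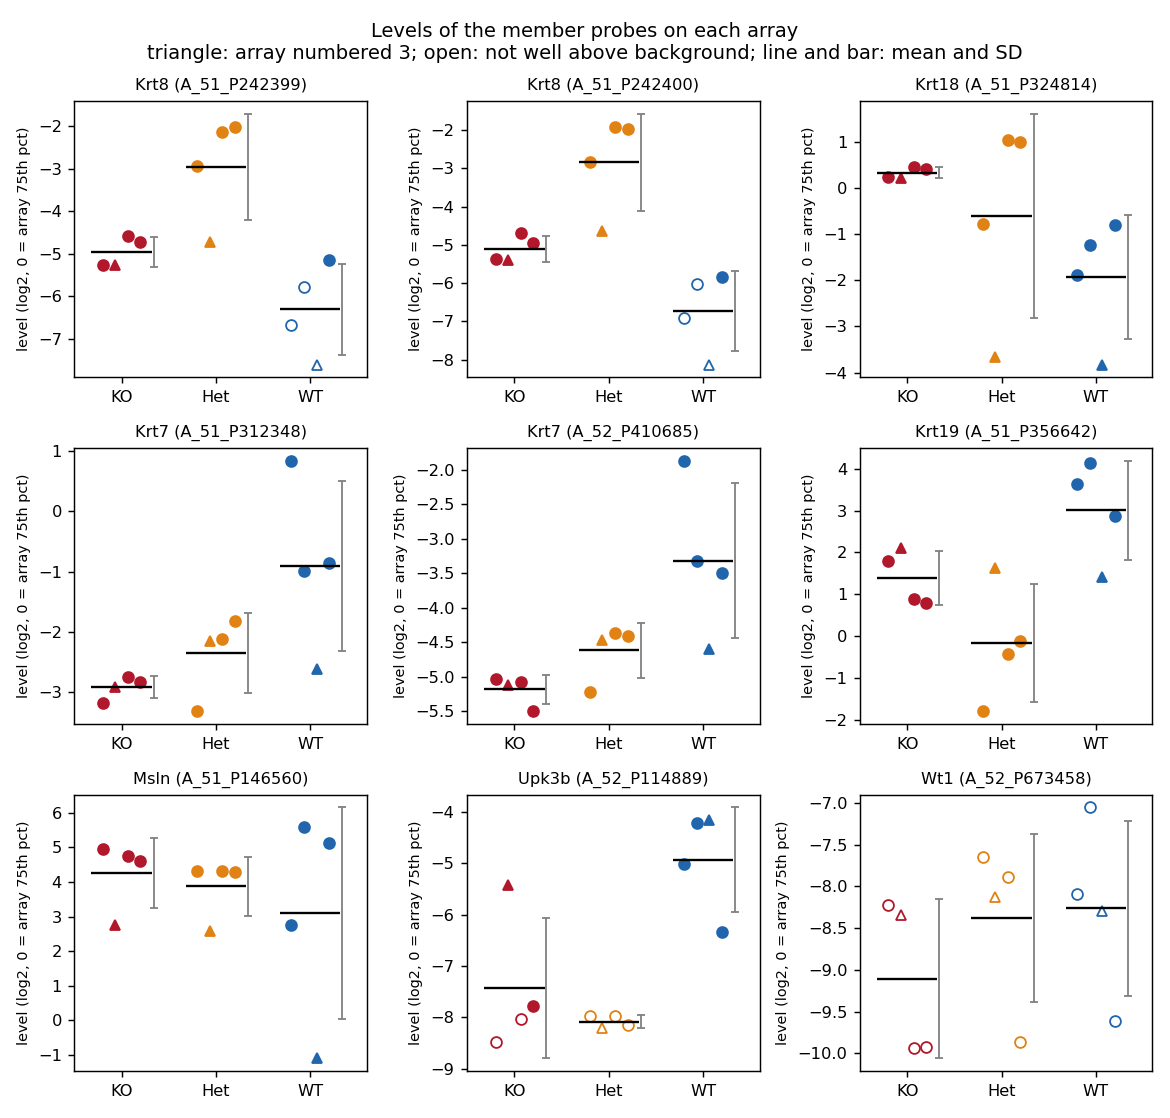
Levels of the 9 member probes on the 12 arrays, in log2 units relative to the array's 75th percentile, for KO, Het and WT cells; lines and bars give mean and SD, triangles the arrays numbered 3 and open symbols arrays where the probe was not well above background. Both Krt8 probes are highest in Het cells, the highest array is a WT array for Krt7, Krt19 and Upk3b, and every Wt1 symbol is open.

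Krt18, the type I partner of Krt8, was level across KO arrays and spread widely in the other genotypes. It stood at 0.24, 0.21, 0.46 and 0.42 in KO replicates 2 to 5, at −0.78, −3.67, 1.04 and 0.99 in Het replicates 2 to 5, and at −1.88, −1.24, −3.82 and −0.79 in WT replicates 1, 2, 3 and 5. All KO arrays lay above all WT arrays, while Het arrays overlapped both, and the arrays numbered 3 were the lowest of the Het and of the WT group. KO exceeded WT by 2.26 (SE 0.94, limma adjusted p = 0.258; exact two-sided permutation p = 0.0286). Het minus WT was 1.33 (SE 0.94, limma adjusted p = 0.521) and KO minus Het 0.94 (SE 0.94, limma adjusted p = 0.783). Without the arrays numbered 3 KO minus WT was 1.67 (SE 0.48, limma adjusted p = 0.0468), Het minus WT 1.72 (SE 0.48, limma adjusted p = 0.0548) and KO minus Het −0.05 (SE 0.48, limma adjusted p = 0.968).

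Krt7, a type II keratin of ducts and mesothelium, gave lower values in KO and Het than in WT cells at both probes. A_51_P312348 stood at −3.18, −2.92, −2.74 and −2.82 in KO, −3.32, −2.15, −2.12 and −1.81 in Het, and 0.84, −0.99, −2.61 and −0.85 in WT cells. WT replicate 3 fell among the Het arrays, and WT replicate 1 was the highest array. A_52_P410685 stood at −5.04, −5.12, −5.08 and −5.50 in KO, −5.22, −4.48, −4.37 and −4.42 in Het, and −1.87, −3.32, −4.60 and −3.50 in WT cells. All KO arrays lay below all WT arrays at both probes, with differences of −2.01 (SE 0.57, limma adjusted p = 0.116) and −1.86 (SE 0.45, limma adjusted p = 0.0674), which did not pass the threshold. Both passed without the arrays numbered 3, at −2.58 (limma adjusted p = 0.0133) and −2.31 (limma adjusted p = 0.0084), and so did Het minus WT, at −2.08 (limma adjusted p = 0.0402) and −1.77 (limma adjusted p = 0.0335). Over all 12 arrays Het minus WT was −1.45 (SE 0.57, limma adjusted p = 0.250) and −1.30 (SE 0.45, limma adjusted p = 0.194). Leaving out WT replicate 3 alone brought all of these under the threshold, with limma adjusted p of 0.0087 and 0.0059 for KO and 0.0257 and 0.0206 for Het. KO and Het overlapped at both probes, with a difference of −0.57 at each (SE 0.57 and 0.45).

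Krt19, the smallest type I keratin and a partner of Krt7 and Krt8, was measured on all 12 arrays. Its levels were 1.79, 2.09, 0.90 and 0.78 in KO, −1.81, 1.63, −0.43 and −0.11 in Het, and 3.62, 4.13, 1.40 and 2.88 in WT cells. By mean the order was WT, KO, Het, with Het replicate 3 and WT replicate 3 lying among the KO arrays. Het minus WT was −3.18 (SE 0.71, 9.09-fold lower in Het, limma adjusted p = 0.0615; exact two-sided permutation p = 0.0571) and KO minus WT −1.62 (SE 0.71, limma adjusted p = 0.286). In the fit without the arrays numbered 3, Krt19 was lower by the test in both, at −4.32 in Het (SE 0.50, 20.0-fold, limma adjusted p = 0.0013) and at −2.39 in KO cells (SE 0.50, limma adjusted p = 0.0142), and KO lay 1.94 above Het (SE 0.50, limma adjusted p = 0.0499). Leaving out Het replicate 3 alone gave −3.79 (limma adjusted p = 0.0169) for Het minus WT, and leaving out WT replicate 3 alone −3.72 (limma adjusted p = 0.0114).

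Upk3b, a uroplakin that marks mesothelium, was measured on none of the Het arrays and on all 4 WT arrays. Its levels were −8.49, −5.42, −8.04 and −7.78 in KO, −7.98, −8.22, −7.99 and −8.16 in Het, and −5.01, −4.22, −4.15 and −6.34 in WT cells. Among KO arrays it was well above background on replicates 3 and 5, and KO replicate 3 lay among the WT arrays. KO replicate 5 and WT replicate 5 were on slide 4, at levels below the lowest one well above background on any other slide. Every Het level lay below every WT level (exact two-sided permutation p = 0.0286), a test that took the Het levels as read, near background. As a bound by mean, Upk3b was at least 2.61-fold higher in WT, and the p does not apply to this bound. That bound sets the WT mean against the lowest signal well above background on each Het array, or the probe's own where higher. WT replicate 5, at −6.34, lay below the lowest level well above background on Het replicates 2, 3 and 4 (−5.69, −5.91 and −5.92). The probe entered the limma fit only through its WT arrays, the group where it was high, so its limma values describe it and are not counted as calls. They were −3.15 for Het minus WT (SE 0.62, limma adjusted p = 0.0413) and −2.50 for KO minus WT (SE 0.62, limma adjusted p = 0.0764), and with no filter on dim probes the first had a limma adjusted p of 0.101. Without the arrays numbered 3 they were −2.85 for Het (limma adjusted p = 0.0064) and −2.91 for KO (limma adjusted p = 0.0043), and without KO replicate 3 alone the KO value was −3.17 (limma adjusted p = 0.0056). The Het value lost its place under the threshold with slide as a block (limma adjusted p = 0.109), with normexp correction (−0.97, limma adjusted p = 0.429), with the common floor (−0.77, limma adjusted p = 0.166) and when 9 of the 12 arrays were left out in turn, the exceptions being KO replicate 3, WT replicate 3 and WT replicate 5. KO and Het were both near background, and no difference is given between them.

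Msln, a surface glycoprotein that binds the mucin Muc16, did not pass the test in any comparison. Its levels were 4.95, 2.75, 4.74 and 4.61 in KO, 4.31, 2.59, 4.31 and 4.29 in Het, and 2.77, 5.58, −1.10 and 5.14 in WT cells. The array numbered 3 was the lowest in every genotype, and WT replicate 1 was the next lowest WT array. KO minus WT was 1.17 (SE 1.20, limma adjusted p = 0.701) and Het minus WT 0.78 (SE 1.20, limma adjusted p = 0.792), with KO minus Het at 0.39. Without the arrays numbered 3 these were 0.27 (SE 0.61) and −0.19 (SE 0.61), and the sign of the second turned. Wt1 lay between −9.94 and −8.22 in KO, −9.86 and −7.65 in Het, and −9.61 and −7.06 in WT cells, and no level is drawn from these dim signals.

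The counts of calls leave out Upk3b and cover the 7 probes measured in full in 2 genotypes or more, in which Krt7 and Krt8 stand with 2 probes each. In Het against WT 2 rose and 0 fell by limma, with 5 at an unadjusted p under 0.05, where 1.09% of all tested probes were called, 0.527% higher and 0.559% lower. In KO against WT 0 were called by limma, with 6 at an unadjusted p under 0.05, where 1.5% of all tested probes were called, 0.766% higher and 0.73% lower. In KO against Het 0 were called by limma, with 3 at an unadjusted p under 0.05, where 0.816% of all were called, 0.523% higher and 0.293% lower. Of all 25601 tested probes, 4161 had an unadjusted limma p under 0.05 in KO against WT, 4080 in Het against WT and 2883 in KO against Het. The counts at an unadjusted p in the gene lists below are to be read beside these. Levels did not overlap at 4 of the 7 for KO against WT, 2 for Het against WT and 1 for KO against Het, against 8.65%, 8.68% and 9.93% of all tested probes. In the fit without the arrays numbered 3, 2 of the 7 rose and 3 fell in KO against WT, where 15.4% of all tested probes were called, 7.5% higher and 7.92% lower. Krt8 A_51_P242400, dim in WT cells as given above, is among the risen in that fit. There 2 rose and 3 fell in Het against WT, where 10.2% of all were called, 4.7% higher and 5.52% lower. In KO against Het 1 rose and 2 fell, where 7.82% of all were called, 4.16% higher and 3.67% lower. KO against WT and Het against WT share the WT arrays. In these bulk samples fewer cells of a type and less RNA per cell cannot be told apart.

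**Figure D2:**
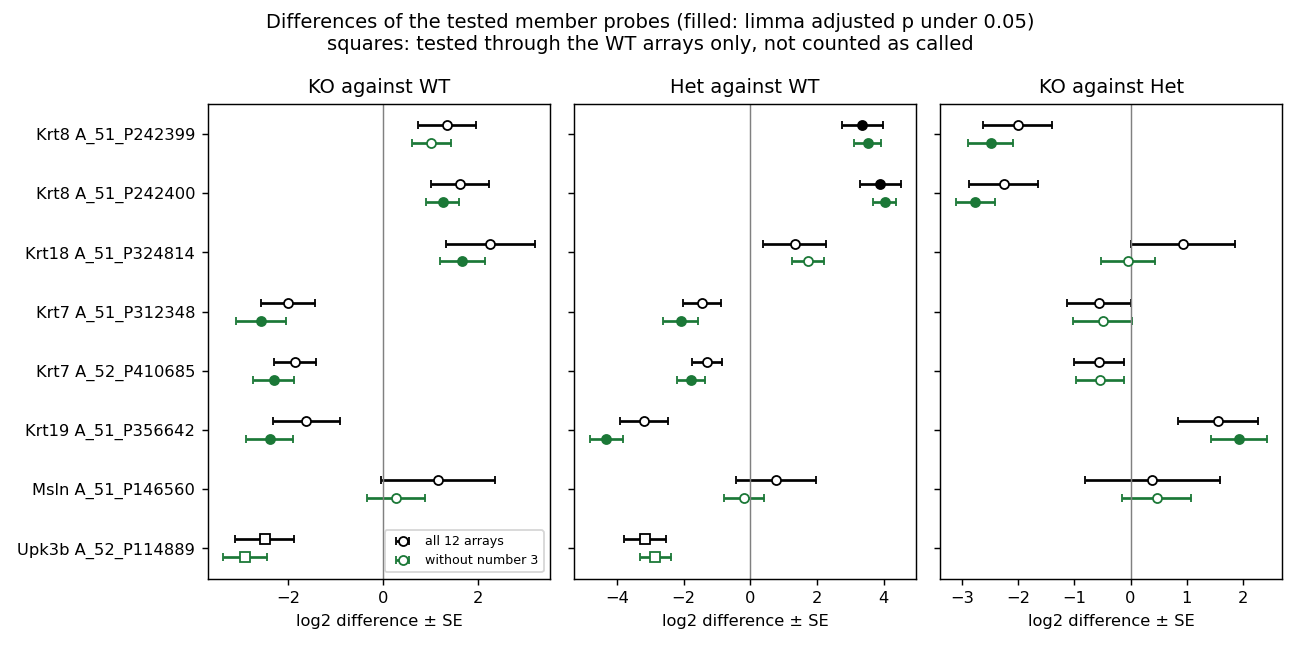
Log2 differences with their SE for the 8 tested member probes in KO against WT, Het against WT and KO against Het, over all 12 arrays in black and without the arrays numbered 3 in green; filled symbols have a limma adjusted p under 0.05, and squares mark Upk3b, which was tested through its WT arrays only and is not drawn for KO against Het. Over all arrays the filled symbols are both Krt8 probes in Het against WT, where without the arrays numbered 3 Krt7 and Krt19 are filled too.

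The members did not vary as a block across the arrays. As a description over 12 arrays, which share genotypes and slides, levels of the 2 Krt8 probes correlated at 0.995 and those of the 2 Krt7 probes at 0.977. Krt8 (A_51_P242399) correlated with its partner Krt18 at 0.65 and with Krt19 at −0.73, and these were 0.72 and −0.87 over the 9 arrays not numbered 3. Krt7 (A_51_P312348) correlated with Krt19 at 0.65 and with Upk3b at 0.48, or 0.72 and 0.82 over those 9 arrays. Msln correlated with Krt18 at 0.69 over 12 arrays and at 0.22 over 9.

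**Figure D3:**
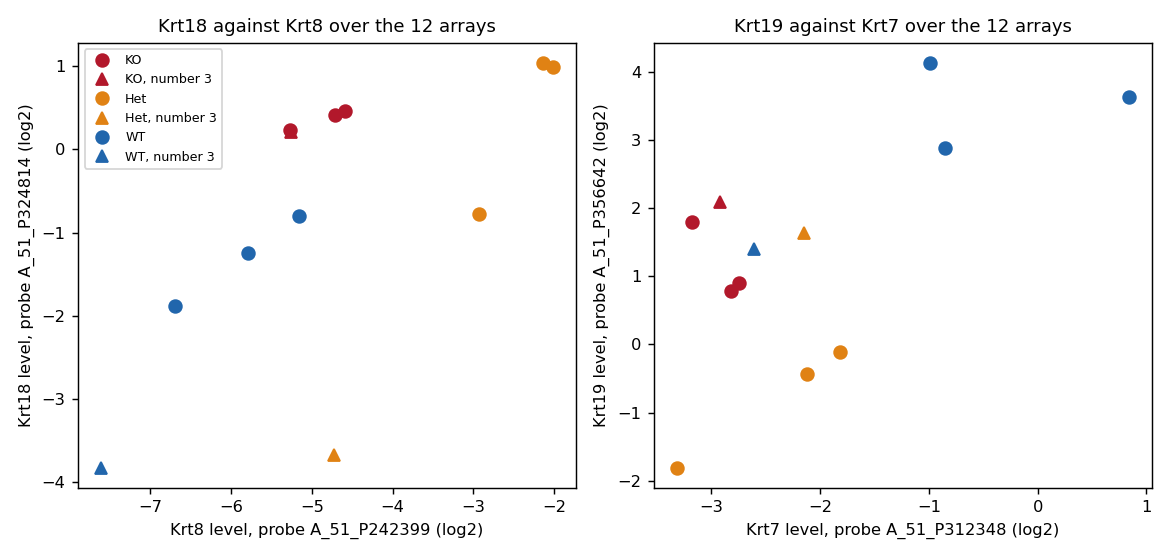
Level of Krt18 against Krt8 (left) and of Krt19 against Krt7 (right) on the 12 arrays, in log2 units, with KO, Het and WT arrays in colour and the arrays numbered 3 as triangles. Het replicate 3 has Krt18 at −3.67, far below the other Het arrays, and Krt19 of Het replicate 2 is the lowest of all at −1.81.

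The genes whose levels ran most like each member were taken by Pearson correlation over the 12 arrays. For Krt8 they were Tent2 (named Papd4 on the array) at 0.952, the transporter gene Slc16a11 at 0.949 and 5033406O09Rik at 0.941. For Krt18 they were Ly75 at 0.922, Dcp2 at 0.918 and Tars at 0.908, and for Krt7 Lrrfip1 at 0.970, Btg2 at 0.961 and the growth factor gene Pdgfa at 0.958. Krt19 ran closest to the actin-associated Pdlim5 at 0.972, Pde1a at 0.948 and the connexin gene Gjb5 at 0.941. Msln ran closest to Naa15 (Narg1 on the array) at 0.973, Dapk2 at 0.970 and M6pr at 0.969, and Upk3b to Phf19 at 0.936, Tbx20 at 0.894 and Cep76 at 0.893. Over the 9 arrays not numbered 3, the same genes correlated with Krt18 at 0.744, 0.857 and 0.814, and with Msln at 0.971, 0.789 and 0.758. For the other members the values there were 0.894 to 0.994. The Upk3b correlations rest in part on signals near background in KO and Het cells.

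Krt8, Krt18 and Krt7 lie on chromosome 15, and in the RefSeq annotation of GRCm38.p6 the predicted genes Gm36026 and Gm41404 stand between Krt8 and Krt18. RefSeq promoter windows of 300 bases around the annotated start were matched for 4 of the 7 members. Those of Krt8 (chr15:102004293-102004592, minus strand), Krt18 (chr15:102027966-102028265, plus strand) and Krt7 (chr15:101412153-101412452, plus strand), all GRCm38.p6, are shown because these keratins form the partner groups compared above. Capitals mark matches on either strand to TATAAA, to CACCTG, to GGGCGG and to TGANTCA:
Krt8: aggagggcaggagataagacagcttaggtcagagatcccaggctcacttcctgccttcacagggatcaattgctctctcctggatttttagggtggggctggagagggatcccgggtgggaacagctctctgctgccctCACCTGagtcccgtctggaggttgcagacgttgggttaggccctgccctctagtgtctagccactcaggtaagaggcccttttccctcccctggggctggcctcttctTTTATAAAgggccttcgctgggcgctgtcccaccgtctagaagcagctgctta
Krt18: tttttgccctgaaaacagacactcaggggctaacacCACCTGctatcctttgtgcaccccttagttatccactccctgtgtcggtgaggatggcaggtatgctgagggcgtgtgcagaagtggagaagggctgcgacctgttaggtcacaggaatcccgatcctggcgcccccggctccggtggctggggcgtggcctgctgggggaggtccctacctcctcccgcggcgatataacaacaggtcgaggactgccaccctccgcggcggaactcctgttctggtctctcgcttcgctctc
Krt7: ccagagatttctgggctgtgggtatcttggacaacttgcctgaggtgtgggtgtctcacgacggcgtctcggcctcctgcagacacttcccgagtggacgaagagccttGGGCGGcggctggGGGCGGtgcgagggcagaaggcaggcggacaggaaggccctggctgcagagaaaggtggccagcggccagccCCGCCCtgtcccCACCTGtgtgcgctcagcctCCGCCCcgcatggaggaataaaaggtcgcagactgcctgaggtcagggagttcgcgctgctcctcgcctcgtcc
The Krt8 window held TATAAA from position −1 and its reverse TTTATA from −3, which overlap each other and run across the annotated start. It also held CACCTG at position −111. The Krt18 window held CACCTG at −214, and the Krt7 window CACCTG at −44 and 4 matches to GGGCGG or its reverse. The Upk3b window held none of the 4. Of 32851 RefSeq windows of this length, 13.6% held TATAAA, 20.2% CACCTG, 35.7% GGGCGG and 7.81% TGANTCA on either strand, and a match is a description of letters only.

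Of 12 further mesothelial markers on the array, 3 were tested and 0 were called by limma in any comparison, with 3, 1 and 1 at an unadjusted p under 0.05 in KO against WT, Het against WT and KO against Het. Lrrn4, a defining mesothelial marker, was well above background on 0 of 12 arrays, Muc16, the mucin that Msln binds, was so on 4 of 12, Upk1b on 5 and the transcription factor Bnc1 on 4, of which 3 were Het arrays. Of the 12 markers, 8 to 10 were well above background on the arrays of slide 4 and 3 to 6 on the others. Their summed linear level ranged from 0.666 to 1.14 in KO, 0.920 to 1.47 in Het and 1.39 to 2.47 in WT cells. Pdpn, the podoplanin gene, made up 67.7% to 90.2% of that sum on each array, at −0.44 ± 0.45 in KO, −0.13 ± 0.27 in Het and 0.47 ± 0.45 in WT cells, and passed in no comparison in either fit. The median difference of the tested 3 was −0.91 for KO against WT and −0.58 for Het against WT, beside 0.04 and 0.02 over all tested probes. Without the arrays numbered 3, with 4 genes tested, it was −1.23 for KO against WT and 0.12 for Het against WT, where its sign turned. Nkain4 stood at −3.48 ± 0.40 in KO, −3.22 ± 0.14 in Het and −2.65 ± 0.73 in WT cells, and without the arrays numbered 3 it fell by 1.34 in KO (SE 0.20, limma adjusted p = 0.0030) and by 0.96 in Het (SE 0.20, limma adjusted p = 0.0178) against WT. The claudin Cldn15 stood at −4.91 ± 0.32 in KO, −3.21 ± 1.5 in Het and −3.42 ± 0.84 in WT cells, and without those arrays it fell by 1.65 in KO against WT (SE 0.32, limma adjusted p = 0.0110). Bnc1 went the other way there, at 3.38 in Het minus WT (limma adjusted p = 0.0981) and −4.51 in KO minus Het (limma adjusted p = 0.0451), and it entered that fit only through its Het arrays, where it was high. Their part in the keratin and Upk3b differences was not tested.

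Of 15 factors of the coelomic and urogenital lining among which Wt1 acts, 9 were tested. Osr1, a zinc finger factor of the intermediate mesoderm, was called in Het against WT cells, with levels of 0.81 ± 0.25 in KO, −0.05 ± 0.80 in Het and 1.68 ± 0.29 in WT cells (−1.74, SE 0.34, limma adjusted p = 0.0413). That call ended under 6 of 10 alternatives, with limma adjusted p of 0.0538 to 0.111: no scaling, normexp, no filter, slide or replicate as a block, and only Het and WT arrays. It held in 3 of the 12 single omissions, those of the arrays numbered 3. No other gene of this list was called in any comparison over all 12 arrays, with 3 at an unadjusted p under 0.05 for KO against WT. The homeobox factor Lhx9 stood at 2.29 ± 0.42 in KO, −1.54 ± 2.23 in Het and −0.58 ± 0.92 in WT cells. Lhx9 without the arrays numbered 3 rose by 2.24 in KO (SE 0.21, limma adjusted p = 0.0003) and fell by 2.50 in Het (SE 0.21, limma adjusted p = 0.0002) against WT. There Emx2 rose by 1.19 in KO (SE 0.20, limma adjusted p = 0.0055) and fell by 1.40 in Het (SE 0.20, limma adjusted p = 0.0036), and the ligand Wnt4 fell by 2.29 in Het (SE 0.39, limma adjusted p = 0.0082). Gata6, named here after its values were seen, also fell by 0.79 in Het cells in that fit (limma adjusted p = 0.0109).

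Of 24 epithelial identity genes 12 were tested, among them Epcam and Cdh1 only through their KO arrays, where they were highest, and their limma values are therefore descriptions. Epcam, an adhesion molecule of most epithelia, stood at −4.91 ± 0.44 in KO, −5.24 ± 0.69 in Het and −6.49 ± 0.39 in WT cells and was well above background on 4 KO, 3 Het and 1 WT array. Its KO minus WT difference was 1.59 (SE 0.34, limma adjusted p = 0.0470). The adjusted p exceeded 0.05 in 8 of 10 alternatives, at 0.0535 to 0.280 by limma, and stayed under it with 1 probe per gene, without the arrays numbered 3 and in 4 of the 12 single omissions, those of the arrays numbered 3 and of Het replicate 4. E-cadherin, Cdh1, stood at −3.81 ± 0.78 in KO, −5.95 ± 2.14 in Het and −6.41 ± 1.41 in WT cells, and KO minus WT without the arrays numbered 3 was 2.70 (SE 0.59, limma adjusted p = 0.0177). In the same fit the protease gene St14 fell by 3.13 in KO (SE 0.73, limma adjusted p = 0.0232), Cdh3, named after its values were seen, rose by 0.64 (limma adjusted p = 0.0224), and the desmosomal membrane gene Perp fell by 3.86 in Het (SE 0.27, limma adjusted p = 0.0001) against WT. The claudin Cldn7, also named after its values were seen, rose there by 0.99 in Het (limma adjusted p = 0.0150). Over all arrays Perp stood at 2.92 ± 0.77 in KO, 0.07 ± 1.83 in Het and 1.81 ± 2.46 in WT cells. Its Het minus WT difference over all arrays was −1.73 (SE 1.14, limma adjusted p = 0.488). Besides Epcam, none of the 12 had a limma adjusted p under 0.05 in any comparison over all arrays. Of the 12, 4, 3 and 3 had an unadjusted p under 0.05 in KO against WT, Het against WT and KO against Het. The median difference of the 12 was 0.51 for KO against WT and 0.10 for Het against WT, and 0.04 and −0.08 without the arrays numbered 3.

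Desmosome and keratin linker genes, which anchor keratin filaments, gave 0 calls by limma among 8 tested of 11 in all comparisons, with 1, 2 and 2 at an unadjusted p under 0.05 in KO against WT, Het against WT and KO against Het. Pkp1 stood at −3.27 ± 1.56 in KO, −4.38 ± 0.22 in Het and −6.00 ± 1.20 in WT cells, and without the arrays numbered 3 it rose by 1.36 in KO (SE 0.17, limma adjusted p = 0.0013) and by 1.13 in Het (SE 0.17, limma adjusted p = 0.0045). The linker plectin, Plec, stood at 2.74 ± 0.26 in KO, 2.95 ± 1.00 in Het and 1.84 ± 0.88 in WT cells, and rose there by 1.32 in KO (SE 0.38, limma adjusted p = 0.0464) and 1.87 in Het (SE 0.38, limma adjusted p = 0.0163). In that fit, of 9 tested, 3 rose and 0 fell in KO against WT, and 3 rose and 2 fell in Het against WT. Of all probes tested there 7.5% rose and 7.92% fell in KO, and 4.7% rose and 5.52% fell in Het. The other genes called there, named after their values were seen, were Jup, Pkp2 and Eppk1. Plakoglobin, Jup, rose by 0.71 in KO (limma adjusted p = 0.0398) and 0.79 in Het (limma adjusted p = 0.0355), and Pkp2 fell in Het by 0.68 (limma adjusted p = 0.0483). Eppk1, the other counted as fallen in Het, stood at −1.91 in Het minus WT (limma adjusted p = 0.0133). It was well above background on 3 KO, 1 Het and 2 WT arrays and entered that fit only through its KO arrays. No fall is drawn from these dim signals. Desmoplakin, Dsp, stood at −3.62 ± 1.14 in KO, −3.44 ± 2.20 in Het and −2.67 ± 1.46 in WT cells and passed in neither fit.

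Of 21 other keratins 9 were tested and 0 were called by limma over all arrays, with 0, 0 and 1 at an unadjusted p under 0.05. The basal keratin Krt5 fell, without the arrays numbered 3, by 0.73 in KO against WT (SE 0.16, limma adjusted p = 0.0160), at −4.93 ± 0.52 in KO, −4.31 ± 0.19 in Het and −4.63 ± 0.37 in WT cells over all arrays. Krt13 fell by 1.08 in KO (SE 0.27, limma adjusted p = 0.0307). Among the 4 other uroplakins 1, Upk1a, was tested, at −4.85 ± 0.42 in KO, −5.06 ± 0.54 in Het and −4.88 ± 0.60 in WT cells, and passed in no comparison.

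**Figure D4:**
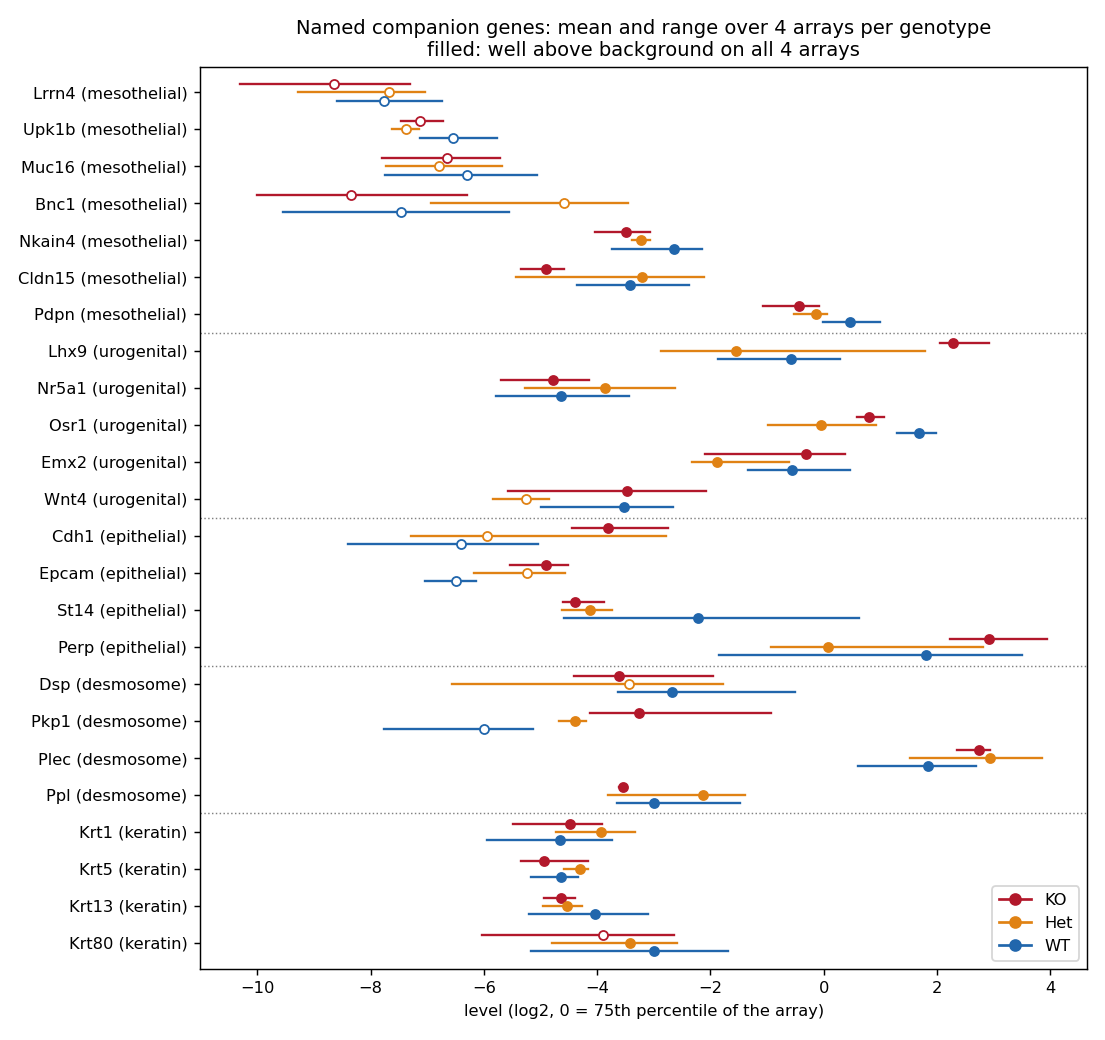
Levels of the named mesothelial, urogenital, epithelial, desmosome and keratin companion genes, in log2 units, as mean and range over the 4 arrays of KO, Het and WT cells; filled symbols mark probes well above background on all 4 arrays of a genotype. Lrrn4, Upk1b, Muc16 and Bnc1 have open symbols in all genotypes, and Lhx9 in KO cells lies at 2.06 to 2.92, above its WT range.

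All 19 fibroblast markers were well above background on all 12 arrays. Col1a1, the main fibrillar collagen gene, stood at 6.73 ± 0.08 in KO, 6.86 ± 0.15 in Het and 6.57 ± 0.25 in WT cells, and vimentin, Vim, at 6.57 ± 0.14, 6.91 ± 0.12 and 6.70 ± 0.27. The fibroblast surface antigen gene Thy1 fell in KO cells, with levels of 0.57 ± 0.31 in KO, 2.73 ± 0.23 in Het and 4.05 ± 0.69 in WT cells (KO against WT −3.47, SE 0.30, limma adjusted p = 0.0010; KO against Het −2.16, SE 0.30, limma adjusted p = 0.0105). The proteoglycan gene Dcn fell in KO against Het by 3.21 (SE 0.53, limma adjusted p = 0.0191), a call that ended without KO replicate 2, Het replicate 2 or Het replicate 4. Of the 19, without the arrays numbered 3, 0 rose and 4 fell in KO against WT, and 2 rose and 2 fell in Het against WT. Of all probes tested in that fit 15.4% and 10.2% were called. The summed linear level of the fibroblast markers ranged from 606 to 738 in KO, 776 to 986 in Het and 718 to 806 in WT cells.

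Of 8 smooth muscle and pericyte markers, 6 were tested over all arrays and 1 was called. The contractile gene Cnn1 fell in Het against WT by 3.72 (SE 0.56, limma adjusted p = 0.0164) and was 2.90 higher in KO than in Het cells (SE 0.56, limma adjusted p = 0.0373), at 3.30 ± 0.23 in KO, 0.40 ± 0.63 in Het and 4.12 ± 1.36 in WT cells. The first call ended with slide or replicate as a block and with only Het and WT arrays (limma adjusted p = 0.0662 to 0.0973), the second with slide or replicate as a block, normexp and no filter (limma adjusted p = 0.0503 to 0.115), and over the 12 single omissions 7 and 4 held. Without the arrays numbered 3, of 7 tested, 0 rose and 3 fell in KO against WT and 0 rose and 5 fell in Het against WT. Of all probes tested in that fit 7.92% fell in KO and 5.52% in Het. There smooth muscle actin, Acta2, fell by 1.18 in KO (limma adjusted p = 0.0232) and 1.15 in Het (limma adjusted p = 0.0341), and desmin, Des, stood at −1.80 in KO minus WT (limma adjusted p = 0.0108) and −1.95 in Het minus WT (limma adjusted p = 0.0103). Cnn1 fell there by 1.41 in KO (limma adjusted p = 0.0003), and Tagln and Mcam fell in Het by 1.87 (limma adjusted p = 0.0045) and 2.10 (limma adjusted p = 0.0007). The summed linear level of the list ranged from 157 to 176 in KO, 87.1 to 140 in Het and 89.3 to 400 in WT cells.

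Among tested trophoblast (3 of 9), pluripotency (4 of 8), endothelial (3 of 8) and macrophage (4 of 8) markers none was called by limma in any comparison over all 12 arrays, with at most 1 per list at an unadjusted p under 0.05. Some were called without the arrays numbered 3, and those outside the 4 largest of a list are named after their values were seen. Eomes, a trophoblast and mesoderm factor well above background on 4 KO, 2 Het and 3 WT arrays, stood at −5.27 ± 2.15 in KO, −5.67 ± 0.52 in Het and −2.42 ± 3.87 in WT cells. In that fit it fell by 5.85 in KO (SE 0.28, limma adjusted p = 1.04e-05) and by 5.01 in Het (SE 0.28, limma adjusted p = 2.86e-05) against WT, and Gata3 fell by 0.73 (limma adjusted p = 0.0328) and 0.77 (limma adjusted p = 0.0353). The endothelial receptor gene Kdr stood at −3.55 ± 1.29 in KO, −4.28 ± 0.36 in Het and −1.94 ± 0.59 in WT cells, and fell there by 2.44 in KO (limma adjusted p = 0.0012) and by 2.43 in Het (limma adjusted p = 0.0017). The macrophage gene Cd14 fell by 0.96 in KO (limma adjusted p = 0.0439), and Nanog, which entered that fit only through its KO arrays, differed by 1.88 in KO minus WT (limma adjusted p = 0.0175). Whether any of these other cell type markers bears on the keratin and Upk3b differences was not tested.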

How the data were processed

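RNA of 12 MEF samples was hybridised to 1-colour Agilent arrays. Per the file headers, the authors extracted spots with Agilent Feature Extraction, version 9.5 per the submitters' processing notes, and deposited the processed signal of each spot as a background-subtracted intensity on a linear scale. The deposited series table holds the same intensity, with a largest relative difference of 0. Each array has 43379 non-control spots, with scans on 1 day over 4 slides, which the file names give.

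Spots marked as outliers were dropped, spots of a probe averaged on the log2 scale, and each array's 75th percentile, taken over its non-control probes, was subtracted. Probes were named through a RefSeq table of GRCm38.p6 (22944 by accession, 6664 by symbol, 3108 by synonym, 8458 keeping the array's name). The comparison of genotypes used limma 3.58.1 (R 4.3.3) with 1 row per probe, 1 fit of 12 arrays, empirical Bayes moderation and Benjamini-Hochberg adjustment over 25601 tested probes. A probe that entered the fit through 1 genotype only, the higher one of a comparison, was not counted as called. Single member probes were also tested with exact two-sided permutation tests, 27 in all, whose p-values are unadjusted. The fit was tested on simulated data. Alternatives were no scaling, quantile scaling, normexp, no filter, 1 probe per gene, slide and replicate as blocks, single slides, fewer genotypes, and arrays left out, plus a common floor added after seeing the data. The members and gene lists were chosen with earlier results of these data known. Named are all member probes, list genes called in any comparison, up to 4 more per list by size, the fixed partners Upk1b, Muc16, Lrrn4, Bnc1, Cdh1, Epcam, Dsp, Vim and Col1a1, and the 3 genes most like each member. A gene that this rule would also name is not reported here. Figures used matplotlib 3.10.9.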

Additional observations from a re-analysis of the deposited data

Results flagged for a closer look

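Of 24 groups of 4 member levels, 3 held an array far from the other 3 by Dixon's criterion, which chance meets in about 1 in 20 groups. Krt7 (A_52_P410685) stood at −5.22 in Het replicate 2, against −4.48 to −4.37 in the other Het arrays. Msln stood at 2.75 in KO replicate 3, against 4.61 to 4.95 in the other KO arrays, and at 2.59 in Het replicate 3, against 4.29 to 4.31 in the other Het arrays.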

How the results depend on the processing

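The number of probes called was 383 for KO against WT (196 higher), 278 for Het against WT (135 higher) and 209 for KO against Het (134 higher). In that order it was 168, 59 and 88 with normexp correction, 119, 61 and 87 with no filter, 72, 58 and 107 with slide as a block, and 4133, 2739 and 2097 without the arrays numbered 3. Unscaled signals gave 153 (71 higher), 162 (28 higher) and 209 (171 higher), and moved the median difference to −0.21 for Het against WT and 0.25 for KO against Het. Fitting only the 2 genotypes compared gave 142, 72 and 388. Leaving out 1 array at a time gave 68 to 2397, 40 to 2027 and 50 to 526, with the highest counts without WT replicate 3, WT replicate 3 and Het replicate 3.

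With replicate as a block 146 and 110 probes were called for KO and Het against WT. Deviations of same-numbered arrays correlated at 0.204 to 0.399 in the 3 pairs of number 3 and at −0.093 to 0.301 in the 7 other pairs, with 5 of all 10 over 0.1, so the numbers were not taken to pair samples. Under that block Krt8 in Het against WT was 3.04 (adjusted p = 0.0338) and 3.61 (adjusted p = 0.0278) by limma and Upk3b −3.09 (adjusted p = 0.120), and Krt8 A_51_P242400 in KO against Het passed at −2.27 (adjusted p = 0.0475).

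Leaving out 1 array at a time, Msln ranged from −0.23 (without WT replicate 3) to 2.00 in KO against WT, from −0.62 (without WT replicate 3) to 1.61 in Het against WT and from −0.040 (without Het replicate 3) to 0.89 in KO against Het. In KO against Het Krt18 ranged from −0.086 (without Het replicate 3) to 1.48. Signs also turned without the arrays numbered 3 for Msln in Het against WT (−0.19) and in KO against Het for Krt18 (−0.046), and with slide as a block for Msln in KO against Het (−0.055). None of these differences passed the test. With no filter Krt8 A_51_P242399 in Het against WT had a limma adjusted p of 0.0778 and Upk3b 0.101, while A_51_P242400 kept 0.0467; there 41174 probes were tested in place of 25601. Elsewhere the cause of a lost call was not tested. Signals near background limit Upk3b in KO and Het cells, Krt8 in WT cells and Wt1 in all.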
